A study of Mus musculus with 2 samples.

Results

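The genes described here are 46 genes of the interferon response and of class I antigen presentation, out of 19505 genes named on the array. They were listed by name, with earlier results of these data known. They fall into 30 interferon-stimulated genes, 11 genes of the major histocompatibility complex (MHC) class I pathway and 5 genes of the immunoproteasome. They were measured in B16F10 cells, a mouse melanoma line, on 2 single-colour Affymetrix arrays, 1 per group. One group had been transfected with an NRF3 expression plasmid (genotype Nrf3 expression) and the other with a GFP expression plasmid (genotype GFP expression). Both carried a puromycin resistance vector, both were selected with puromycin, and both received forskolin, an activator of adenylate cyclase, for 5 days. The comparison therefore concerns NRF3 under forskolin, with no untreated cells beside it, and the labels do not say whether the stable cells were pools or clones. With 1 array per group there is no measure of error and no test, and every difference compares these 2 RNA samples only.

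Interferons are secreted proteins that warn cells of infection. Type I interferon binds the IFNAR receptor and interferon gamma the IFNGR receptor, and JAK kinases then activate STAT proteins that switch on interferon-stimulated genes. STAT2 and IRF9 act at the interferon-stimulated response element (ISRE) in their promoters, while interferon gamma acts through the gamma-activated site (GAS). MHC class I molecules show peptides cut by the proteasome to T cells: a heavy chain pairs with beta-2 microglobulin, the TAP transporter brings peptides into the endoplasmic reticulum, and tapasin helps to load them. Interferon gamma also exchanges catalytic subunits of the proteasome for those of the immunoproteasome. B16F10 cells are known for low class I display that interferon gamma can restore.

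Promoter windows from RefSeq (build GRCm38.p6), 250 bases before to 50 after a transcription start, were found for 35 of the 46 genes. The letters GAAANNGAAA, an ISRE core searched on both strands, occurred in a window of 18 of these 35 genes, or 51.4%, against 3.99% of all 27025 genes with a window. The share was 14 of 21 interferon-stimulated genes, 3 of 9 class I genes and 1 of 5 immunoproteasome genes. The stretches below come from genes of every outcome in the NRF3 cells, higher, lower, within 1.5-fold or too dim to call. All 5 higher genes with a match are shown, but only some of the 5 within 1.5-fold and the 7 too dim. ISRE matches are in capitals.
Ifit3, higher, chr19:34583348-34583441, plus strand: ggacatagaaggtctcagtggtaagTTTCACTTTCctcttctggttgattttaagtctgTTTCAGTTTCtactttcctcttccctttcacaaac
Ifih1, higher, chr2:62646206-62646248, minus strand: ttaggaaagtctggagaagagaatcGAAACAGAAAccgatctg
Cxcl10, higher, chr5:92349068-92349127, minus strand: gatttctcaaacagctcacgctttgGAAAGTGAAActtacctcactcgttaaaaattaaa
Ddx58, higher, chr4:40239789-40239848, minus strand: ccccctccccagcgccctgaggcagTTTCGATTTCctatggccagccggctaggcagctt
Erap1, higher, chr13:74639824-74639883, plus strand: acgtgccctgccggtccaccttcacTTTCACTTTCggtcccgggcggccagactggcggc
Bst2, lower, chr8:71537562-71537627, minus strand: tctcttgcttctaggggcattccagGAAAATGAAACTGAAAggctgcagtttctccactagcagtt
B2m, within 1.5-fold, chr2:122147523-122147582, plus strand: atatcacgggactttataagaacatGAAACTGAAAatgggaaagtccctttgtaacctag
Irgm1, within 1.5-fold, chr11:48871410-48871475, minus strand: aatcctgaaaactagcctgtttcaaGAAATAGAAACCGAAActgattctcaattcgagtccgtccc
Isg15, too dim on both arrays, chr4:156200850-156200921, minus strand: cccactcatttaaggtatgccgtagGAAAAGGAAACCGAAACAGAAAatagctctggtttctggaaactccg

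The match did not go with 1 direction. Of the genes with a window, it was held by 5 of 6 that were higher, by 1 of 2 that were lower, by 5 of 10 within 1.5-fold and by 7 of 15 below the detection floor. Of the 2 with no named probe set on the array, Ifi44 and H2-Q7, 0 held it. Isg15, with 3 overlapping matches, was among the dim genes. In Bst2, Irgm1, Isg15, Gbp3 and Oas1a neighbouring ISRE matches overlapped within the gene's own window. The GAS letters TTCNNNGAA, which read the same on both strands, occurred in 5 of the 35 genes (14.3%, against 9.55% of all genes), and the antioxidant response element letters TGACNNNGC, the kind of site that cap'n'collar factors such as NRF3 bind with small MAF proteins, in 7 (20%, against 14.0%). In Bst2 a GAS match began at -136 from the start and overlapped the ISRE match that began at -130. An antioxidant response element match was held by 2 of 6 genes that were higher, Cxcl10 and H2-K1, and by 0 of 2 that were lower. It was also held by 1 of 10 within 1.5-fold, by 3 of 15 below the floor and by 1 of 2 without a named probe set. A match is a string of letters and not a measured binding site.

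A pair of whole windows is shown for genes with a difference past 1.5-fold and no ISRE match by these letters. The letters were searched without mismatches, so an interferon element spelled otherwise would be missed. H2-K1 has its antioxidant response element match in capitals, and Xaf1 has none of the 3 motifs.
H2-K1, higher, chr17:34000298-34000597, minus strand: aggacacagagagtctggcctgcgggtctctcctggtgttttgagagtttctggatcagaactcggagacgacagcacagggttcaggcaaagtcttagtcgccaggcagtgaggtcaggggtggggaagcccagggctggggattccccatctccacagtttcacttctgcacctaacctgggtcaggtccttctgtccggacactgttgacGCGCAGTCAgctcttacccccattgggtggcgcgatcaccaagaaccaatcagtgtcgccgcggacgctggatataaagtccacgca
Xaf1, lower, chr11:72301379-72301678, plus strand: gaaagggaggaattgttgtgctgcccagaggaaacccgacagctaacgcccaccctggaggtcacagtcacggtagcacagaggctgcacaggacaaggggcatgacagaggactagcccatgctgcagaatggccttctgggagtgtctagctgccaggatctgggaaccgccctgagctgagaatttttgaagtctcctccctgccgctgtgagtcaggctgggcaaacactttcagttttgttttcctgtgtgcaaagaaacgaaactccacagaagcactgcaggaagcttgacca

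The values are deposited log2 expression values, and differences are the NRF3 value minus the GFP value. A gene was called detected when its brighter value reached 5.89, the median of all named probe sets, and past the size rule when it differed by at least 1.5-fold, or 0.58 on the log2 scale. The 5222 control rows labelled neg had upper quartiles of 7.85 on the NRF3 array and 7.52 on the GFP array, and a gene under that mark on either array has a difference whose size may reflect background. Nfe2l3, the gene of NRF3, lay at 10.15 on the NRF3 array and at 6.04 on the GFP array. All 7 melanocyte markers listed were detected, and of 11 leukocyte markers measured none was, with highest values of 5.43 on the NRF3 array and 5.12 on the GFP array. Of 10 fibroblast and endothelial markers measured, 1 was detected, Pdgfrb, at 5.79 on the NRF3 array and at 6.02 on the GFP array. In bulk RNA, fewer cells that express a gene and less of its RNA per cell cannot be told apart.

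Of the 46 genes, 43 had a named probe set, 1 for each gene. Ifi44, H2-Q7 and Nlrc5, the transactivator of class I genes, had none, so their expression was not analysed here. Ifi44 and H2-Q7 entered the motif search only. Of the 43, 18 were detected and 25 were not. Past 1.5-fold, 6 were higher in the NRF3 cells and 2 were lower, while 17% of the 10162 detected genes were higher and 23.6% were lower. At 2-fold, 5 were higher and 2 lower, against backgrounds of 6.75% and 11%. The median difference over the 18 was 0.07, against -0.07 over all detected genes. A gene that passed the floor through its brighter array alone, as Cxcl10, Irf9 and Xaf1 did, had to differ, so these counts describe the detected genes and support nothing.

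**Figure D1:**
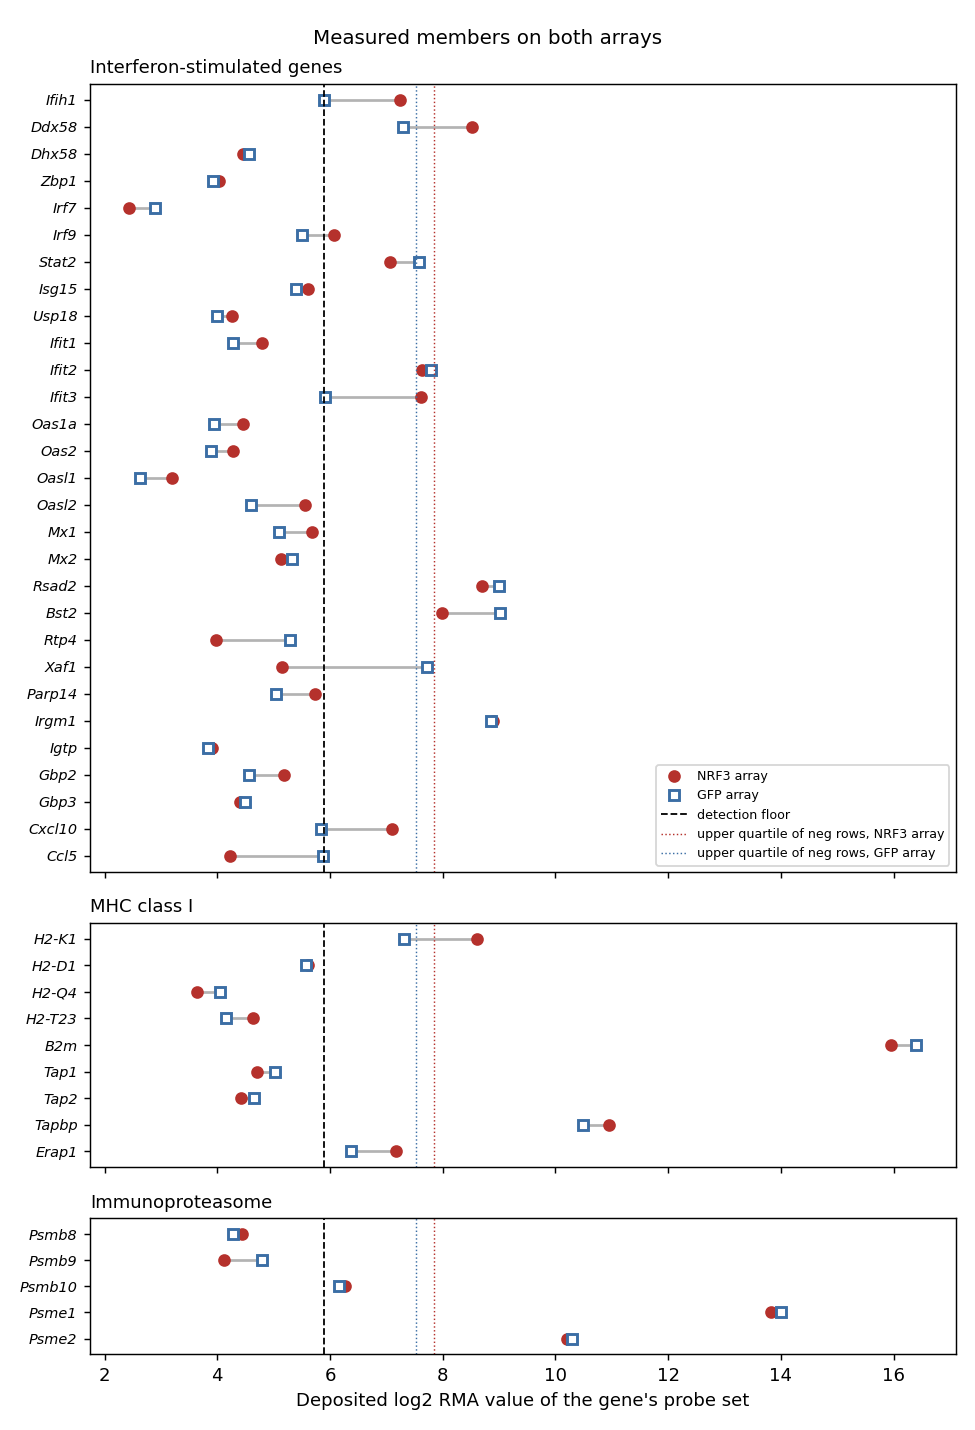
Deposited log2 value of each of the 43 measured genes on the NRF3 array (filled circles) and the GFP array (open squares), by group; the dashed line is the detection floor of 5.89 and the dotted lines are the upper quartiles of the control rows named neg on each array. Values of different probe sets are not comparable as levels; 25 genes lie left of the floor on both arrays, and the longest bar among detected genes is that of Xaf1.

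Most interferon-stimulated genes were too dim to call in either population. Of 29 measured, 18 lay under the floor on both arrays, or 62.1%, against 47.9% of all named genes. Of the 11 detected, 4 were higher in the NRF3 cells, 2 were lower and 5 were within 1.5-fold, with a median difference of 0.03. Among all detected genes 17% were higher and 23.6% lower. Higher genes were the RNA sensors Ifih1 and Ddx58, the effector Ifit3 and the chemokine Cxcl10. Lower genes were Bst2 and Xaf1.

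Both detected sensors were higher. Ifih1 encodes MDA5, a cytosolic sensor of long double-stranded RNA, and lay at 7.25 in NRF3 cells and at 5.90 in GFP cells, a difference of 1.35 or 2.55-fold. Its GFP value lay under 6.12, the median of these control rows for the GFP array. Ddx58 encodes RIG-I, a sensor of RNA with a 5′ triphosphate, and lay at 8.52 in NRF3 cells and at 7.30 in GFP cells, a difference of 1.23 or 2.34-fold. The NRF3 value of Ddx58 stood above the upper quartile of the control rows and its GFP value under it, so the size may depend on background. The difference of Ddx58 was larger than that of 96.1% of detected genes, and that of Ifih1 than that of 97.1%. Dhx58, which encodes LGP2, a helicase that tunes both sensors, lay under the floor, at 4.46 in NRF3 cells and at 4.57 in GFP cells. Zbp1, a sensor of Z-form nucleic acid that can start necroptosis, lay at 4.02 in NRF3 cells and at 3.92 in GFP cells.

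The factors that carry the type I interferon signal did not pass the size rule. Stat2 lay at 7.06 in NRF3 cells and at 7.58 in GFP cells, a difference of -0.51. Irf9, its DNA-binding partner, lay at 6.06 in NRF3 cells and at 5.50 in GFP cells. That difference of 0.57 fell just short of the rule, and both values lay under the median of the control rows on their array. Irf7, the factor that amplifies interferon production, was far under the floor, at 2.44 in NRF3 cells and at 2.89 in GFP cells.

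Antiviral effectors went both ways. Ifit3, of the family that binds foreign RNA and blocks its translation, lay at 7.62 in NRF3 cells and at 5.91 in GFP cells. Its difference of 1.70, or 3.25-fold, was the largest of the 43 genes toward higher values. The GFP value lay under the median of the control rows, and the probe set may also read the near-identical neighbour Ifit3b. Ifit2, from the same gene cluster on chromosome 19, lay at 7.63 in NRF3 cells and at 7.79 in GFP cells, a difference of -0.15. Ifit1, the third family member, was under the floor on both arrays, at 4.799 in NRF3 cells and at 4.29 in GFP cells.

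Xaf1, a pro-apoptotic partner of the inhibitor of apoptosis XIAP, had the lowest difference of the 43 genes. It lay at 5.14 in NRF3 cells and at 7.72 in GFP cells, a difference of -2.57 or 5.95-fold lower, and only 0.748% of detected genes had a lower one. On the NRF3 array it did not reach the floor, which makes the size dependent on background. Bst2 encodes tetherin, which holds budding viruses on the cell surface. It lay at 7.98 in NRF3 cells and at 9.01 in GFP cells, a difference of -1.03 or 2.04-fold lower. Of the 8 genes past the size rule, it alone had both values above the upper quartiles of the control rows. Bst2 lies on chromosome 8, where the median difference of 549 detected genes was 0.56, and relative to that median its difference was -1.59. Rsad2, which encodes viperin, an enzyme that makes a chain-terminating nucleotide, lay at 8.70 in NRF3 cells and at 8.997 in GFP cells. With a difference of -0.30 and both values above the control rows' upper quartiles, Rsad2 stayed within 1.5-fold.

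The remaining effectors were dim. Oas1a, Oas2, Oasl1 and Oasl2, of the oligoadenylate synthetase family, Mx1 and Mx2, dynamin-like GTPases, and Parp14, an ADP-ribosyltransferase, lay under the floor on both arrays. So did Rtp4, a chaperone of receptors. Isg15, the ubiquitin-like modifier, lay at 5.62 in NRF3 cells and at 5.40 in GFP cells. Usp18, the protease that removes ISG15, lay at 4.25 in NRF3 cells and at 3.9995 in GFP cells. Neither reached the floor, so neither could be called. The 18 dim genes differed by between -1.64, for the chemokine Ccl5, and 0.97, for Oasl2, and no weight rests on those values. Among the interferon-inducible GTPases, which act against pathogens inside vacuoles, Irgm1 was the detected one. It lay at 8.89 in NRF3 cells and at 8.85 in GFP cells, both above the control rows' upper quartiles, and differed by 0.03. Igtp, Gbp2 and Gbp3 were under the floor.

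Both chemokines of the list attract activated T cells. Cxcl10 lay at 7.10 in NRF3 cells and at 5.84 in GFP cells, a difference of 1.26 or 2.39-fold. Its GFP value was under the floor and its NRF3 value under the upper quartile of the control rows, so the size depends on background. Ccl5 lay at 4.23 in NRF3 cells and at 5.87 in GFP cells, and did not reach the floor on either array. Only Bst2, Rsad2 and Irgm1 of the interferon-stimulated genes had both values above the control rows' upper quartiles. Counted over those 3, none was higher and 1 was lower, while among the 6930 genes that met the same bar 16.6% were higher and 21.1% were lower.

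**Figure D2:**
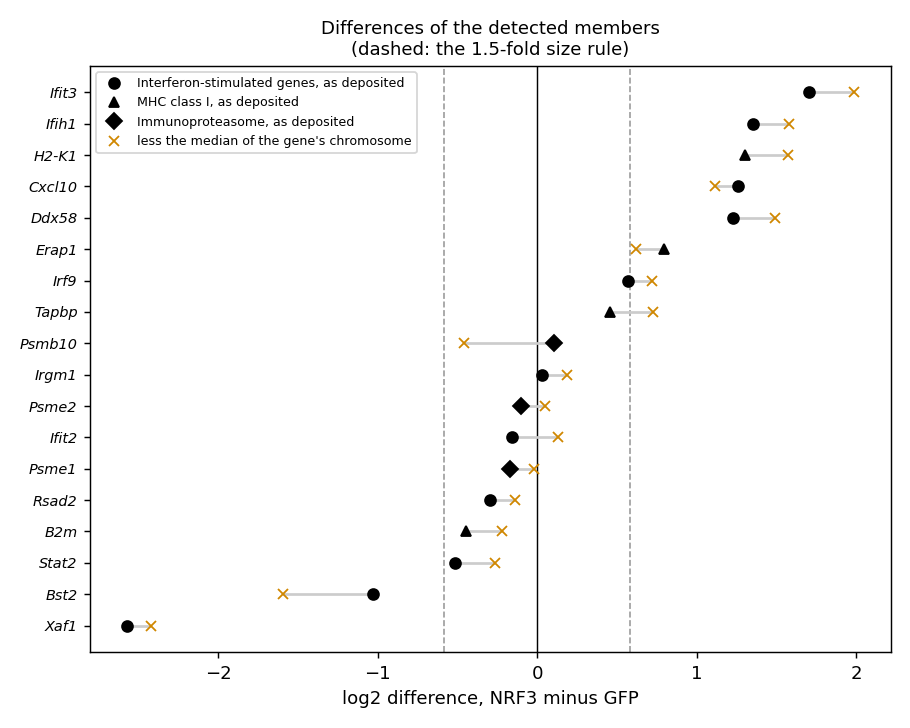
Difference in log2 value, NRF3 minus GFP, of the 18 detected genes in order (black symbols by group), with the same difference less the median of all detected genes on the gene's chromosome (crosses). Ifit3 lies at the top and Xaf1 at the bottom; the cross of Bst2 lies left of its circle, and that of Psmb10 on the other side of 0.

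In the class I pathway, 1 heavy chain gene and 1 trimming enzyme were higher and the light chain was within 1.5-fold. Of 9 measured genes 4 were detected, of which 2 were higher and none was lower, beside 17% higher and 23.6% lower among all detected genes. The median difference was 0.62 over these 4, 0.029 over all 9 measured and 0.0034 over the 2 with both values above the control rows' upper quartiles. H2-K1, a classical heavy chain that presents peptides to killer T cells, lay at 8.61 in NRF3 cells and at 7.31 in GFP cells, a difference of 1.30 or 2.46-fold. The NRF3 value stood above the upper quartile of the control rows and the GFP value under it. H2-D1, the other classical heavy chain measured, lay under the floor at 5.61 in NRF3 cells and at 5.58 in GFP cells, a difference of 0.03. The non-classical chains H2-Q4 and H2-T23 were dimmer still, at 3.64 and 4.64 in NRF3 cells and at 4.05 and 4.15 in GFP cells. Heavy chain genes are close copies of each other, so a probe set may read more than 1 of them. H2-K1 and Tapbp lie on chromosome 17, where the median difference was -0.27, and relative to it H2-K1 differed by 1.57.

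B2m, the light chain that every class I molecule needs, lay at 15.95 in NRF3 cells and at 16.40 in GFP cells, a difference of -0.45. Tapbp, which encodes tapasin, lay at 10.95 in NRF3 cells and at 10.49 in GFP cells. Its difference of 0.45 was within the size rule, and 0.73 relative to its chromosome, which is past it. Both genes had values above the upper quartiles of the control rows on both arrays. Erap1, the aminopeptidase that trims peptides in the endoplasmic reticulum, lay at 7.17 in NRF3 cells and at 6.37 in GFP cells. It differed by 0.80, or 1.74-fold, with both values under the upper quartiles of the control rows. Tap1 and Tap2, the subunits of the peptide transporter, were under the floor, at 4.71 and 4.41 in NRF3 cells and at 5.02 and 4.65 in GFP cells. Over B2m and Tapbp, the genes with both values above the control rows' upper quartiles, neither passed 1.5-fold.

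None of the 3 detected immunoproteasome genes differed by 1.5-fold, while 17% of all detected genes were higher and 23.6% were lower. Psme1 and Psme2, the alpha and beta subunits of the PA28 activator that opens the proteasome core, had both values above the upper quartiles of the control rows. Psme1 lay at 13.83 in NRF3 cells and at 14.00 in GFP cells, a difference of -0.17. Psme2 lay at 10.20 in NRF3 cells and at 10.30 in GFP cells, a difference of -0.10. Psmb10, an interferon-inducible catalytic subunit, lay at 6.26 in NRF3 cells and at 6.16 in GFP cells, close to the medians of the control rows, 6.37 on the NRF3 array and 6.12 on the GFP array. It lies on chromosome 8, and its difference of 0.11 was -0.46 relative to the median of that chromosome. Psmb8 and Psmb9, the other inducible catalytic subunits, were under the floor, at 4.43 and 4.11 in NRF3 cells and at 4.28 and 4.795 in GFP cells.

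Of the constitutive subunits that these replace, 1 was higher and 1 was within the size rule. Psmb6, which Psmb9 replaces, lay at 14.84 in NRF3 cells and at 13.89 in GFP cells, a difference of 0.95. Psmb7, which Psmb10 replaces, lay at 15.92 in NRF3 cells and at 15.52 in GFP cells, a difference of 0.40. Relative to the median of chromosome 2, on which it lies, that difference was 0.62, which is past the size rule. Psmb5, which Psmb8 replaces, had no named probe set. Among the other activators, Psme4 lay at 12.71 in NRF3 cells and at 11.49 in GFP cells, and Psme3 differed by 0.07. Of these 4 measured genes, Psmb6, Psmb7 and the activators Psme3 and Psme4, 2 were past 1.5-fold higher and none was lower. That stands against 0 and 0 of the 3 detected immunoproteasome genes, beside 17% and 23.6% of all detected genes. Relative to the medians of their chromosomes, 3 of these 4 genes and 0 of the 3 immunoproteasome genes were higher. Over all detected genes 1842 of 10162 were. With 1 array per group neither contrast was tested.

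Interferon receptors and their kinases were mostly within 1.5-fold. Of 13 detected receptor and signalling genes, 10 were within 1.5-fold, 2 were higher and 1 was lower, with a median of 0.02, beside 17% and 23.6% of all detected genes. The type I receptor genes Ifnar1 and Ifnar2 differed by 0.29 and -0.01. The kinase genes Jak1, Jak2 and Tyk2 differed by 0.02, 0.17 and 0.06. Ifngr1, the ligand-binding chain of the interferon gamma receptor, lay at 9.52 in NRF3 cells and at 8.45 in GFP cells, a difference of 1.07, while its partner Ifngr2 differed by -0.03. Irf2, which competes with IRF1 at promoters, was higher by 1.27, or 0.71 relative to chromosome 8, on which it lies. Irf1, an activator induced by interferon gamma, differed by -0.51. Ptpn2, a phosphatase that dampens JAK and STAT signalling, lay at 9.41 in NRF3 cells and at 10.19 in GFP cells, a difference of -0.77.

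Several genes between nucleic acid sensors and interferon production were past the size rule. Of 11 detected, 5 were past 1.5-fold higher, 2 were as much lower and 4 were within it, with a median of 0.54, while 17% of all detected genes were higher and 23.6% were lower. Relative to the medians of their chromosomes the median of these genes was 0.0014, and 5 were still past the rule on the higher side. Sting1, the adaptor for cytosolic DNA sensing, lay at 13.05 in NRF3 cells and at 10.83 in GFP cells, a difference of 2.22. Cgas, the DNA sensor upstream of it, went the other way, at 5.35 in NRF3 cells and at 6.39 in GFP cells, with an NRF3 value under the floor. Ticam1, the TRIF adaptor of toll-like receptor 3, lay at 10.22 in NRF3 cells and at 8.53 in GFP cells, a difference of 1.69. The ubiquitin ligase gene Traf6 differed by 1.39, and the kinase genes Tbk1 and Ikbke, named after their values were seen, by 0.92 and 0.61. Mavs, the mitochondrial adaptor that both RIG-I and MDA5 signal through, lay at 11.27 in NRF3 cells and at 11.86 in GFP cells, a difference of -0.60. It was barely past the size rule and fell short of it after median centring, quantile normalization, a lowess trend or the chromosome median, which left 1 lower gene. Ifnb1, the gene of interferon beta, was under the floor, at 4.01 in NRF3 cells and at 4.72 in GFP cells.

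A further 41 interferon-stimulated genes, listed by name and outside the 46, also went both ways. Of 21 detected, 5 were higher and 3 lower past 1.5-fold, with a median of 0.14, beside the same 17% and 23.6% of all detected genes. Isg20, an exonuclease of RNA, lay at 8.74 in NRF3 cells and at 6.53 in GFP cells, a difference of 2.21 whose GFP value is under the upper quartile of the control rows. Parp12 and Shisa5 differed by 1.49 and 1.15, with GFP values under the same mark. Ifi27 and Sp100, named after their values were seen, differed by 0.94 and 0.89. Ifi27 lay at 10.07 in NRF3 cells and at 9.13 in GFP cells, both above the control rows' upper quartiles, and Sp100 had both values under them. Over the 10 genes that met that bar, 1 was higher and 2 were lower, beside 16.6% and 21.1% of all genes that met it. Lgals3bp, a secreted glycoprotein, lay at 9.48 in NRF3 cells and at 11.50 in GFP cells, a difference of -2.02 with both values above the control rows' upper quartiles. Ube2l6, the conjugating enzyme of ISG15, differed by -0.84. Helz2 differed by -0.64, and by -0.46 after quantile normalization, -0.51 after a lowess trend and -0.41 relative to its chromosome, all short of 1.5-fold.

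Other genes listed for class I presentation, most of which are not heavy chains, were higher or within 1.5-fold. Of 13 detected, 5 were higher and none was lower, with a median of 0.50, against 17% higher and 23.6% lower among all detected genes. The heavy chain genes detected among them, H2-T22 and H2-T24, differed by 0.54 and -0.04, both within 1.5-fold. Relative to chromosome 17, on which both lie, they differed by 0.81 and 0.23, so that H2-T22 was then past the size rule. H2-T22 lay at 9.16 in NRF3 cells and at 8.62 in GFP cells, both above the control rows' upper quartiles. Calr encodes calreticulin, a chaperone of the peptide-loading complex, and lay at 19.12 in NRF3 cells and at 18.09 in GFP cells. Its difference of 1.03 was 0.47 relative to chromosome 8, on which it lies. Rfx5 and Rfxap, subunits of a factor that binds MHC promoters, differed by 1.02 and 0.99. The GFP value of Rfx5, 6.86, lay under the upper quartile of the control rows. Pdia3 and Npepps, named after their values were seen, differed by 0.95 and 0.63. Of the class II and checkpoint ligand genes, 9 of 11 measured were under the floor. Cd274, which encodes PD-L1, lay at 5.38 in NRF3 cells and at 7.17 in GFP cells, a difference of -1.79 whose size depends on background. H2-DMb1 differed by -0.77, with both values under the upper quartiles of the control rows.

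**Figure D3:**
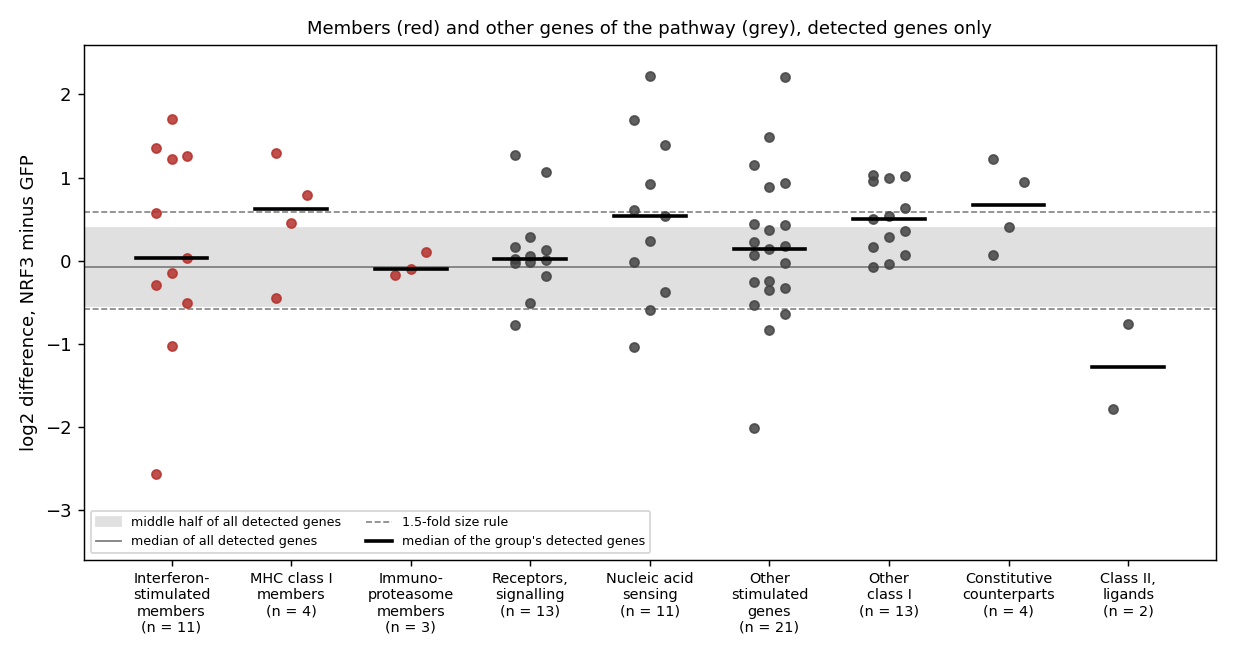
Difference in log2 value, NRF3 minus GFP, of every detected gene in the 3 groups (red) and in 6 other lists of the pathway (grey), with the group median as a bar and the quartiles of all detected genes, -0.55 and 0.39, as a band. The immunoproteasome points lie inside the band, the receptor and signalling points lie mostly inside it, and the interferon-stimulated genes reach beyond it on both sides.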

How the data were processed

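The deposited table holds log2 values per probe set, made by the authors with Affymetrix Expression Console and RMA, per the submitters' processing notes. The sources used here do not give versions, settings or the build of the array annotation. The values reach 19.7 on the NRF3 array and 19.8 on the GFP array, so folds are folds on the deposited scale. Of 28846 rows, 19572 had 1 gene symbol in the platform annotation. The probe set with the highest mean was kept for the 55 genes that had several, which left 19505 genes. Gene numbers were matched to RefSeq (GRCm38.p6) for names and chromosomes, and RefSeq promoter windows were searched for 3 motifs.

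Array data have no read depth, and the 2 arrays limit the precision. The comparison was NRF3 minus GFP, described by counts and medians. The size rule, scalings and floors were varied as given in the closing section. The steps were tested on simulated data, in which detected genes were changed by more than the size rule under little noise. That checks the code and cannot say how reliable a call on these 2 arrays is. Python 3.11.15, pandas 2.3.3 and statsmodels 0.14.6 were used. The 46 genes and the other lists were chosen with earlier results of these data known. All 46 genes were accounted for, and from other lists up to 3 genes on each side past the size rule were named, with a fixed set of receptors, kinases and constitutive subunits. Some further genes of those lists were named after their values were seen.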

Additional observations from a re-analysis of the deposited data

How the results depend on the processing

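The scalings tried were median centring, quantile normalization, a lowess trend on level (span 0.3) and subtraction of the chromosome median. All 8 member genes past 1.5-fold kept their direction and stayed past it under each. The mean over probe sets could not change them, because each measured member had 1 probe set. The counts of the 3 groups moved by over 1.5 times only with the floor or the size rule. After the chromosome medians, 5 interferon-stimulated and 3 class I genes were higher, with Irf9 and Tapbp added. In the other lists Psmb7, H2-T22 and Hspa5 then came past 1.5-fold higher, at 0.62, 0.81 and 0.72. Without a floor, 8 interferon-stimulated genes were higher and 4 lower (median 0.21), the class I median was 0.029, 1 immunoproteasome gene was lower, and 2931 of all genes were higher. With the floor at the 75th percentile no class I gene was higher (median 0.0034, over 2 genes), and of all genes 951 were higher and 1283 lower. No interferon-stimulated gene reached that floor of 9.51, so none of their calls could be checked there. With both values above the upper quartile of the control rows, 0 interferon-stimulated genes were higher and 1 was lower (median -0.30), 0 class I genes were higher (median 0.0034), and 1464 of all genes were lower. At 2-fold, 1 class I gene was higher, and 686 of all genes were higher and 1122 lower. Quantile normalization moved the median of all detected genes by 0.10, and gave group medians of 0.20, 0.73 and 0.013 for interferon-stimulated, class I and immunoproteasome genes. The interferon-stimulated median was 0.15 after the lowess trend and 0.19 after the chromosome medians. A floor on the mean of both values, chosen after seeing the data, gave the same group counts. Mavs fell short of 1.5-fold under 4 alternatives and Helz2 under 3, and after the chromosome median so did Calr and H2-DMb1. The causes were not tested. No paired analysis was possible because each group has 1 array.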
